A study of Mus musculus with 21 samples.

Results

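The Notch receptors and ligands were examined as 9 genes among the 46517 genes of the deposited table. They are the 4 receptors *Notch1*, *Notch2*, *Notch3* and *Notch4*, the 4 ligands *Jag1*, *Jag2*, *Dll1* and *Dll4*, and the antisense gene *Gm17276*, which overlaps *Notch3* on the opposite strand. Members were taken by Ensembl identifier. All mice were C57BL/6J, and the age range given for the sequenced hearts was 10 to 14 months. Control mice were *Notch3*+/+ (4 mice) and the others *Notch3*-/- (3 mice), which carry a germline allele with *lacZ* placed in the *Notch3* locus. The study describes RNA from frozen left ventricle under its quantitative PCR methods, and names only hearts for the sequencing. From each mouse 3 technical libraries were made, 21 in all. The sex of each mouse was not given. Control mice 1 and 2 have labels that begin with X, whereas control mice 3 and 4 and all 3 *Notch3*-/- mice have labels that begin with k. What the prefixes stand for was not given. Since X occurs in control mice only, the 5 k-labelled mice were also compared alone.

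Notch receptors are cell surface proteins activated by ligands on a neighbouring cell. Binding exposes the receptor to an ADAM protease and then to gamma-secretase, which releases the intracellular domain to join RBPJ and Mastermind proteins at target genes such as those of the Hes and Hey families. In blood vessels NOTCH3 is the characteristic receptor of smooth muscle cells and pericytes, whereas NOTCH1, NOTCH4 and DLL4 are known from endothelial cells.

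The tissue was checked with markers before the genes were compared. Values are TMM-normalized CPM, the count of a gene scaled to library size, unless another scale is named. The 8 cardiomyocyte markers summed to 28531, 20827, 24122 and 27210 CPM in control mice 1 to 4 and to 28502, 18706 and 20331 CPM in *Notch3*-/- mice 1 to 3. Their most abundant gene was the sarcomere gene *Ttn*, at 9153 to 15221 CPM, and none of the 8 was at 0 in any mouse. Liver genes were also found. The 12 hepatocyte markers summed to 48.1, 137, 11.8 and 23.4 CPM in control mice 1 to 4, and to 5402, 8774 and 125 CPM in *Notch3*-/- mice 1 to 3. *Notch3*-/- mice 1 and 2 thus stood above every other mouse, while the sum of mouse 3 lay within the control range. Single markers of mouse 3 did not all lie within it, since 7 of the 12 were above every control mouse. The most abundant hepatocyte marker, *Alb*, had 22.4, 81.1, 2.35 and 10.7 CPM in the control mice and 1705, 1875 and 66.9 CPM in the *Notch3*-/- mice. In control mice 1, 3 and 4 the number of hepatocyte markers at 0 was 3, 1 and 3 of 12, and none was at 0 in the other mice. All 11 hepatocyte markers that could be tested had a positive log2 fold change, with a median of 7.06. None was called by edgeR, where all 11 had an unadjusted p lower than 0.05, and DESeq2 called all 12. The 8 markers of other liver cells summed to 9.06 to 15.8 CPM in control mice and to 70.8, 98.9 and 21.4 CPM in *Notch3*-/- mice 1 to 3, and *Stab2*, the most abundant over the 7 mice, had 20.5, 25.7 and 4.54 CPM in the *Notch3*-/- mice. Vascular markers were present in every mouse. Vascular smooth muscle markers summed to 508 to 710 CPM in control mice and to 648, 386 and 491 CPM in *Notch3*-/- hearts. Their most abundant gene was *Smtn*, and *Cnn1* was at 0 in *Notch3*-/- mouse 2. Pericyte markers summed to 1222 to 1357 CPM in control hearts against 1194, 1137 and 1077 CPM. The highest of them was *Rgs5* in every control mouse, and *Abcc9* in *Notch3*-/- mice 1 and 3. Pericyte marker sums of the genotypes did not overlap, and those of smooth muscle did. Of 8 pericyte markers 2 were higher and 6 lower, and of 4 tested smooth muscle markers 1 was higher and 3 lower, none of them called by edgeR (3 and 2 at an unadjusted p lower than 0.05). DESeq2 called 1 of them, *Myh11*. Lower without overlap were the pericyte markers *Rgs5*, *Cspg4* and *Ndufa4l2* and the smooth muscle myosin gene *Myh11*, named here after their values were seen. Over all tested genes, 3.96% were lower without overlap and 10.4% had such a p, and DESeq2 called 3.53%. The part of these mural markers in the *Notch3* result was not tested. In whole tissue, fewer cells of a type and less RNA per cell cannot be told apart.

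The targeted gene was measured first, since it checks the labels. *Notch3* (ENSMUSG00000038146, chr17:32120820-32166852 in GRCm38, minus strand, 33 exons) encodes the receptor of mural cells. It had 57.3, 42.1, 57.6 and 61.8 CPM in control mice 1 to 4 and 6.01, 7.57 and 4.73 CPM in *Notch3*-/- mice 1 to 3. Every *Notch3*-/- mouse lay below every control mouse. The same held for single libraries, with 29.5 to 76.6 CPM (median 55.1) in the 12 control libraries and 1.48 to 12.3 CPM (median 5.51) in the 9 *Notch3*-/- libraries. The log2 fold change was -3.16 (SE 0.23, 95% interval -3.69 to -2.64, n = 4 and 3, FDR 0.00173 by the edgeR quasi-likelihood fit, Benjamini-Hochberg adjusted over 14324 genes). Calls needed an FDR lower than 0.05 together with a 1.5-fold difference or more. With these thresholds 1 of the 9 members was called, and 0.00698% of all tested genes. At an unadjusted p lower than 0.05 there were 2 members, *Notch3* and *Gm17276*, beside 10.4% of all tested genes. All 9 members passed the expression filter, *Gm17276* only through the control mice. In *Notch3*-/- mouse 3 alone, a comparison added after seeing the data, where the hepatocyte marker sum was within the control range, the log2 fold change against the 4 control mice was -3.52 and the edgeR FDR 0.0124, with the lone mouse assumed to vary like the others. The call was lost in the k-labelled mice (-3.29, edgeR FDR 0.206) and with the hepatocyte markers as a covariate (-3.42, edgeR FDR 0.100), at a larger estimated difference in both. Over all alternatives the FDR ran from 2.74e-27 (DESeq2) to 0.206.

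*Notch3* reads were still counted in every *Notch3*-/- mouse. Their mean was 11.2% of the control mean, and the single mice had 11.0%, 13.8% and 8.64% of it. All 9 *Notch3*-/- libraries had reads, from 4 to 18 each. Counts per gene do not show in which exons these reads lie, and the exons removed or kept by the allele were not given in the sources used here.

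**Figure D1:**
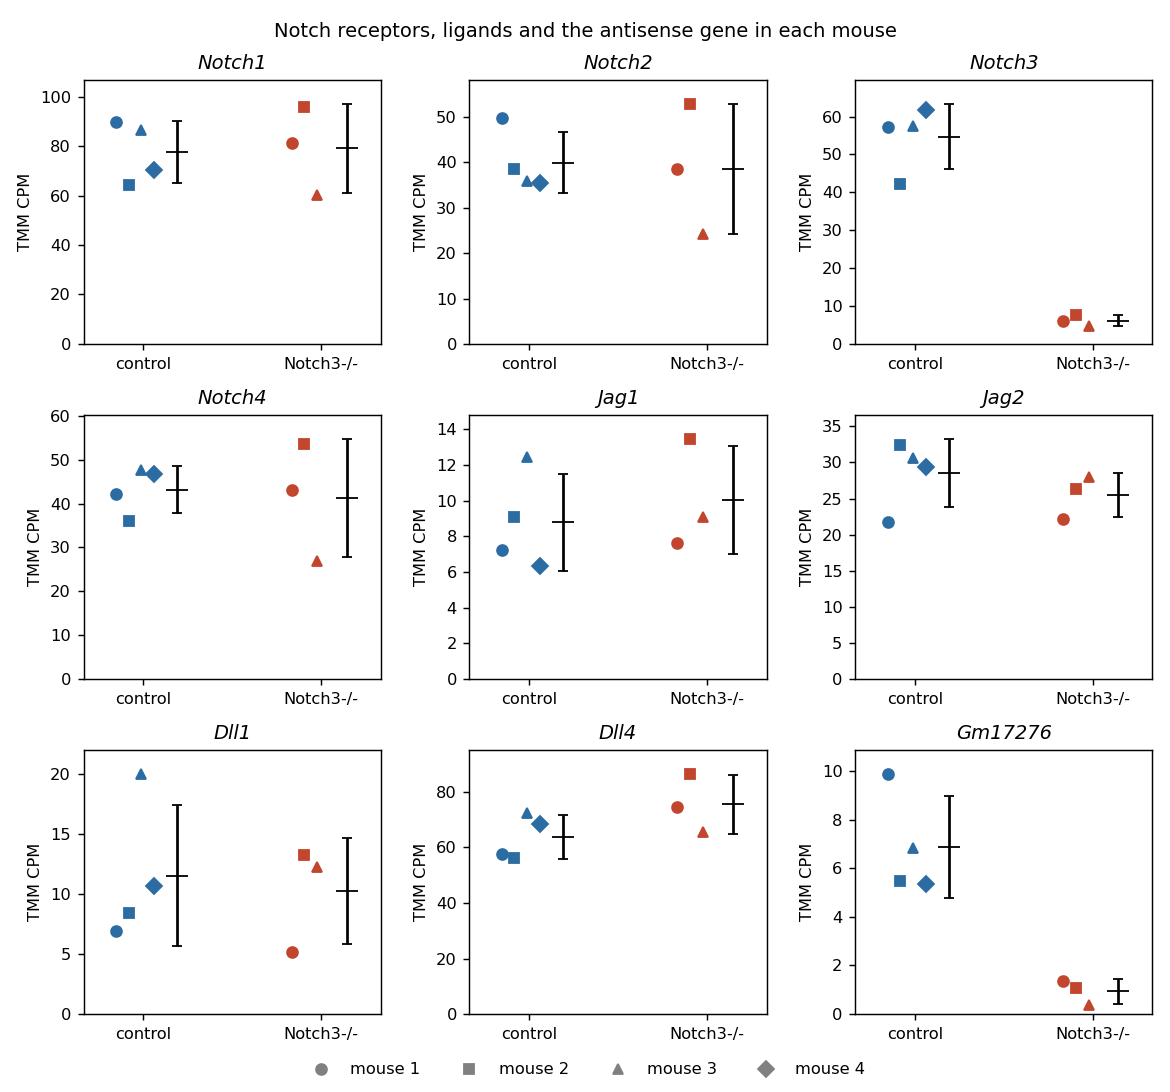
TMM-normalized CPM of the 9 genes in each mouse, with blue symbols for 4 control and red symbols for 3 Notch3-/- mice, and the mean ± SD of each group beside them in black. The genotypes are apart for Notch3 (42.1 to 61.8 against 4.73 to 7.57) and Gm17276, and overlap for the other 7 genes.

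*Gm17276* (ENSMUSG00000097305, chr17:32113411-32141843 in GRCm38, plus strand) is annotated as an antisense gene with 3 transcripts and no coding sequence. Its span shares 21024 bases with that of *Notch3*, but the exons share only 488 bases, all of them coding for NOTCH3 and all in exons 25 and 26. These are 6.03% of the *Notch3* exon bases and 15.5% of those of *Gm17276*. To show what such a read holds, the first 60 bases of exon 25 in the *Notch3* direction (chr17:32141490-32141549, GRCm38, minus strand, from the GENCODE vM21 transcript) are given here. A read of 51 bases, the length used, can lie wholly in this stretch.
Notch3 exon 25: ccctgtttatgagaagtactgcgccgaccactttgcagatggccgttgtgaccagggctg
The quantitative PCR product used in the study for *Notch3* lies elsewhere. It has 125 bases across exons 20 and 21 (96 and 29 bases, chr17:32144806-32146502, minus strand), and none of them lies in a *Gm17276* exon. The primer sites are in capitals.
Notch3 exons 20 and 21: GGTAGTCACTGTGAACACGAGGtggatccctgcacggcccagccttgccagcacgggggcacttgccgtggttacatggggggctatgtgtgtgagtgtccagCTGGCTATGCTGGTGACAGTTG

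*Gm17276* had 9.88, 5.48, 6.82 and 5.34 CPM in control mice 1 to 4 and 1.37, 1.05 and 0.378 CPM in *Notch3*-/- mice 1 to 3. All 3 *Notch3*-/- mice were lower than all 4 control mice. These are small numbers of reads, 30, 26, 29 and 16 in the control mice and 5, 5 and 2 in the *Notch3*-/- mice. From these counts edgeR gave a log2 fold change of -2.89 (SE 0.49, 95% interval -4.04 to -1.83, n = 4 and 3) with an edgeR FDR of 0.118, so it was not called. The gene passed the expression filter only through the control mice, since 0 of 3 *Notch3*-/- mice reached the minimum of 2.38 CPM. DESeq2 called it (log2 fold change -2.94, adjusted p 0.000861), and called 3.53% of the genes to which it gave an adjusted p. Without *Notch3*-/- mouse 3 edgeR called it as well, with a log2 fold change of -2.49 and an FDR of 0.0153. Its FDR over all alternatives ran from 0.000861 to 1.00. For 100 *Notch3* counts, control hearts gave 17.2, 13, 11.8 and 8.65 *Gm17276* counts, against 22.7, 13.9 and 8 for the *Notch3*-/- hearts, so this ratio overlapped between the genotypes. Use of read strand in the counting was not stated, and the library steps described in the study name none that keeps strand. Without strand, a read within the 488 shared exon bases cannot be assigned to either gene. Elsewhere in the 21024 bases shared by the spans, a read from unspliced RNA of either gene can fall in an exon of the other. How many of the counts lie in such places is not known from counts per gene. Of the 9 members these 2 were lower in *Notch3*-/- hearts with no overlap of the mice, and 0 were higher with no overlap. Among all tested genes, 3.96% were lower and 4.57% were higher without overlap.

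The other 3 receptors were not called by edgeR or DESeq2. *Notch1* (ENSMUSG00000026923, chr2:26457903-26516663), a receptor of endothelial and many other cells, had 89.9, 64.3, 86.6 and 70.1 CPM in control mice 1 to 4 and 81.2, 95.9 and 60.1 CPM in *Notch3*-/- mice 1 to 3. From edgeR, its log2 fold change came to 0.02 (SE 0.19, 95% interval -0.40 to 0.45, edgeR FDR 0.981). *Notch2* (ENSMUSG00000027878, chr3:98013527-98150361), a receptor with a broad distribution, had 49.7, 38.6, 35.8 and 35.4 CPM in the control mice and 38.5, 52.8 and 24.2 CPM in the *Notch3*-/- mice. For this gene edgeR gave a log2 fold change of -0.05 (SE 0.25, 95% interval -0.62 to 0.52, edgeR FDR 0.969). *Notch4* (ENSMUSG00000015468, chr17:34564268-34588503), known from endothelial cells, had 42.1, 36.0, 47.8 and 46.8 CPM in the control mice and 43.2, 53.6 and 26.9 CPM in the *Notch3*-/- mice. A log2 fold change of -0.07 was found (SE 0.23, 95% interval -0.58 to 0.45, edgeR FDR 0.947). *Notch4* lies 2.40 megabases from *Notch3* on chromosome 17.

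These 3 receptors shared a pattern within the *Notch3*-/- group. *Notch3*-/- mouse 2 had the highest value of all 7 mice for each of them and *Notch3*-/- mouse 3 the lowest, so that the *Notch3*-/- mice reached past the control mice on both sides. Technical library 3 was the highest of mouse 2 for each receptor (128, 62.0 and 59.3 CPM for *Notch1*, *Notch2* and *Notch4*). It was the lowest of mouse 3 for each (35.5, 15.2 and 19.6 CPM). In the same gene order, libraries 1 and 2 had 80.9 and 76.1, 46.4 and 47.7, and 49.1 and 49.7 CPM in mouse 2. In mouse 3 they had 65.0 and 103, 28.8 and 37.4, and 36.2 and 32.3 CPM. Summed per kilobase of exon, *Notch1*, *Notch2* and *Notch4* gave 16.2, 12.6, 15.3 and 14.01 CPM per kb for the control hearts, against 14.6, 18.3 and 9.80 for the *Notch3*-/- hearts. Mouse 2 also had the highest hepatocyte marker sum (8774 CPM) and mouse 3 the lowest of the *Notch3*-/- group (125 CPM), and the part of this difference in the receptor values was not tested. In mouse 3 against the control mice, the log2 fold changes were -0.37 for *Notch1*, -0.71 for *Notch2* and -0.68 for *Notch4*, each with an edgeR FDR of 0.885. With the hepatocyte markers as a covariate they were -0.40, -0.90 and -0.73, each with an edgeR FDR of 1.00. The FDR of these receptors ran from 0.705 to 1.00 over all alternatives. The direction for *Notch1* differs from that over all mice in both settings. Hepatocyte markers were far higher in *Notch3*-/- mice 1 and 2 than in all other mice. With that covariate the genotype difference therefore rests largely on mouse 3, and the 2 settings are not separate.

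**Figure D2:**
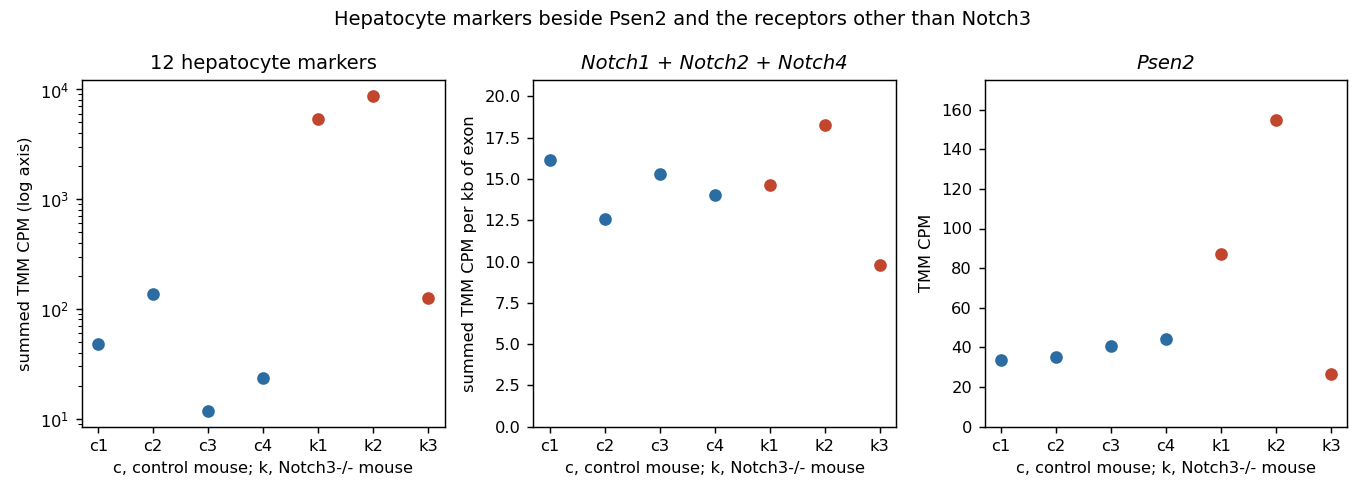
Summed CPM of 12 hepatocyte markers (log axis), summed CPM per kb of exon of Notch1, Notch2 and Notch4, and CPM of Psen2, with 1 point for each of 4 control (c1 to c4) and 3 Notch3-/- mice (k1 to k3). Notch3-/- mice 1 and 2 are high for the hepatocyte markers (5402 and 8774 CPM) and for Psen2, and mouse 3 is low for the receptors (9.80) and for Psen2.

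The share of each receptor in the summed receptor level per kilobase describes the composition in each heart. *Notch3* made up 30.5%, 29.3%, 31.7% and 35.3% of it for the control hearts, against 4.83%, 4.87% and 5.63% for the *Notch3*-/- hearts. The mean shares of *Notch1*, *Notch2* and *Notch4* were 25.6%, 17.5% and 25.2% in control hearts and 37.6%, 23.4% and 33.8% in *Notch3*-/- hearts. Shares sum to a fixed total, so a share can differ between genotypes where the level itself does not. The summed level of all 4 receptors was 17.8 to 23.2 CPM per kb for control hearts, against 15.4, 19.2 and 10.4 for *Notch3*-/- hearts, with overlap between the genotypes.

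None of the 4 ligands was called by edgeR or DESeq2, and none had an unadjusted edgeR p lower than 0.05. *Dll4* (ENSMUSG00000027314, chr2:119325784-119335962), the ligand best known from arterial and sprouting endothelium, had 57.6, 56.3, 72.5 and 68.5 CPM in control mice 1 to 4 and 74.6, 86.4 and 65.4 CPM in *Notch3*-/- mice 1 to 3. *Notch3*-/- mice 1 and 2 were above every control mouse and mouse 3 was not. Its log2 fold change was 0.24 (SE 0.16, 95% interval -0.10 to 0.59, edgeR FDR 0.619), and 0.04 in mouse 3 against the control mice. *Jag2* (ENSMUSG00000002799, chr12:112907819-112929776) had 21.7, 32.5, 30.6 and 29.4 CPM in the control mice and 22.1, 26.3 and 28.0 CPM in the *Notch3*-/- mice, which all lay within the control range (log2 fold change -0.17, SE 0.19, 95% interval -0.59 to 0.26, edgeR FDR 0.812). *Dll1* (ENSMUSG00000014773, chr17:15367354-15376872) had 6.91, 8.43, 19.997 and 10.7 CPM in the control mice and 5.19, 13.3 and 12.3 CPM in the *Notch3*-/- mice. Control mouse 3 was the highest of all mice, and the control SD was 50.99% of the mean. The log2 fold change of *Dll1* was -0.16 (SE 0.43), with the widest 95% interval of the 4 ligands (-1.13 to 0.80, edgeR FDR 0.930). *Jag1* (ENSMUSG00000027276, chr2:137081456-137116644), the ligand that endothelium presents to smooth muscle cells, had 7.24, 9.06, 12.5 and 6.35 CPM in the control mice and 7.65, 13.5 and 9.08 CPM in the *Notch3*-/- mice. A log2 fold change of 0.19 resulted (SE 0.32, 95% interval -0.53 to 0.91, edgeR FDR 0.883). A difference of 1.5 times lies within the interval of each ligand, in either direction for *Dll1*, higher for *Jag1* and *Dll4*, and lower for *Jag2*. The arterial endothelial markers, given for comparison with *Dll4*, summed to 89.8 to 118 CPM in control and 105 to 122 CPM in *Notch3*-/- mice, and the 10 pan-endothelial markers to 1092 to 1613 and 1393 to 1498 CPM.

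Levels were compared between genes per kilobase of exon in the 4 control hearts. *Dll4* was highest with 16.5 ± 2.07 CPM per kb (SD, n = 4, range 14.6 to 18.8), and its range did not overlap that of any other member. *Notch3* followed with 6.76 ± 1.07 CPM per kb, *Notch1* with 5.46 ± 0.875 and *Notch4* with 5.36 ± 0.664. *Jag2* had 4.10 ± 0.676, *Notch2* 3.70 ± 0.624, *Dll1* 2.73 ± 1.39, *Gm17276* 2.18 ± 0.667 and *Jag1* 1.51 ± 0.464 CPM per kb. From *Notch3* to *Jag1* the ranges of every pair of neighbours overlapped, so neighbours in this order are not separated by the spread between mice. Genes farther apart were in part separated, since the range of *Notch3* (5.21 to 7.64) lay above those of *Jag2*, *Notch2*, *Dll1*, *Gm17276* and *Jag1*. With the length of the longest transcript in place of all exon bases, *Notch1* (8.19 CPM per kb) stood before *Notch3* (6.83). In *Notch3*-/- hearts the *Notch3* level was 0.755 ± 0.176 CPM per kb (SD, n = 3), lower than every member except *Gm17276* at 0.295 ± 0.160, while *Dll4* was again highest with 19.6 ± 2.74.

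**Figure D3:**
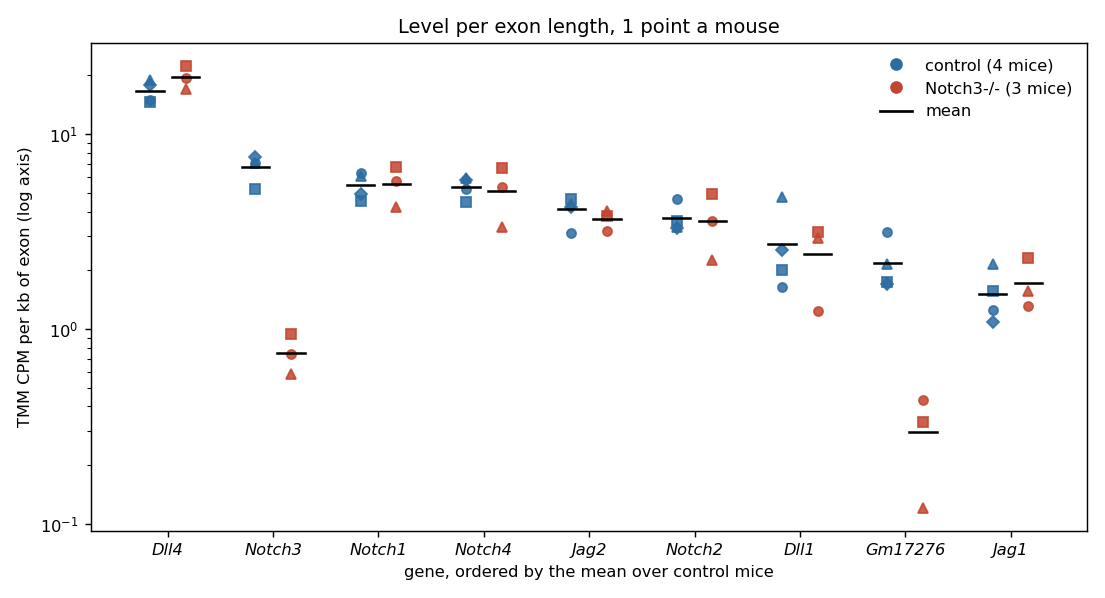
CPM per kilobase of exon on a log axis for the 9 genes, ordered by the control mean, with 1 point a mouse (blue, 4 control; red, 3 Notch3-/-) and black lines for group means. Dll4 (16.5 in control hearts) lies above all others, the next genes overlap with their neighbours, and Notch3 and Gm17276 are lower in Notch3-/- hearts.

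The technical libraries show how much of the spread arises below the level of the mouse. The 3 libraries of a mouse were set against the totals of those libraries by a chi-square statistic, which averages 1 per degree of freedom when only counting error acts. Over the 7 mice it was 8.29 for *Notch1*, 6.36 for *Notch4*, 5.77 for *Dll4*, 4.63 for *Notch2*, 3.71 for *Dll1*, 3.19 for *Jag1*, 3.14 for *Notch3*, 2.22 for *Jag2* and 1.36 for *Gm17276* (14 degrees of freedom each). Its median was 2.67 (quartiles 1.84 and 3.82) over the 9702 tested genes with a summed count between those of the lowest and highest member. *Notch1* in *Notch3*-/- mouse 3 had 79, 143 and 96 counts in its libraries, a chi-square of 52.1, the largest of any member and mouse. *Jag1* in control mouse 2 had 36, 1 and 6 counts, and in *Notch3*-/- mouse 1 it had 12, 15 and 1. The low *Notch1* value of *Notch3*-/- mouse 3 was carried by libraries 3 and 1, while library 2 lay above the control mean. Differences between single libraries are therefore larger than counting error for most members, and the mouse sums were used in the tests.

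**Figure D4:**
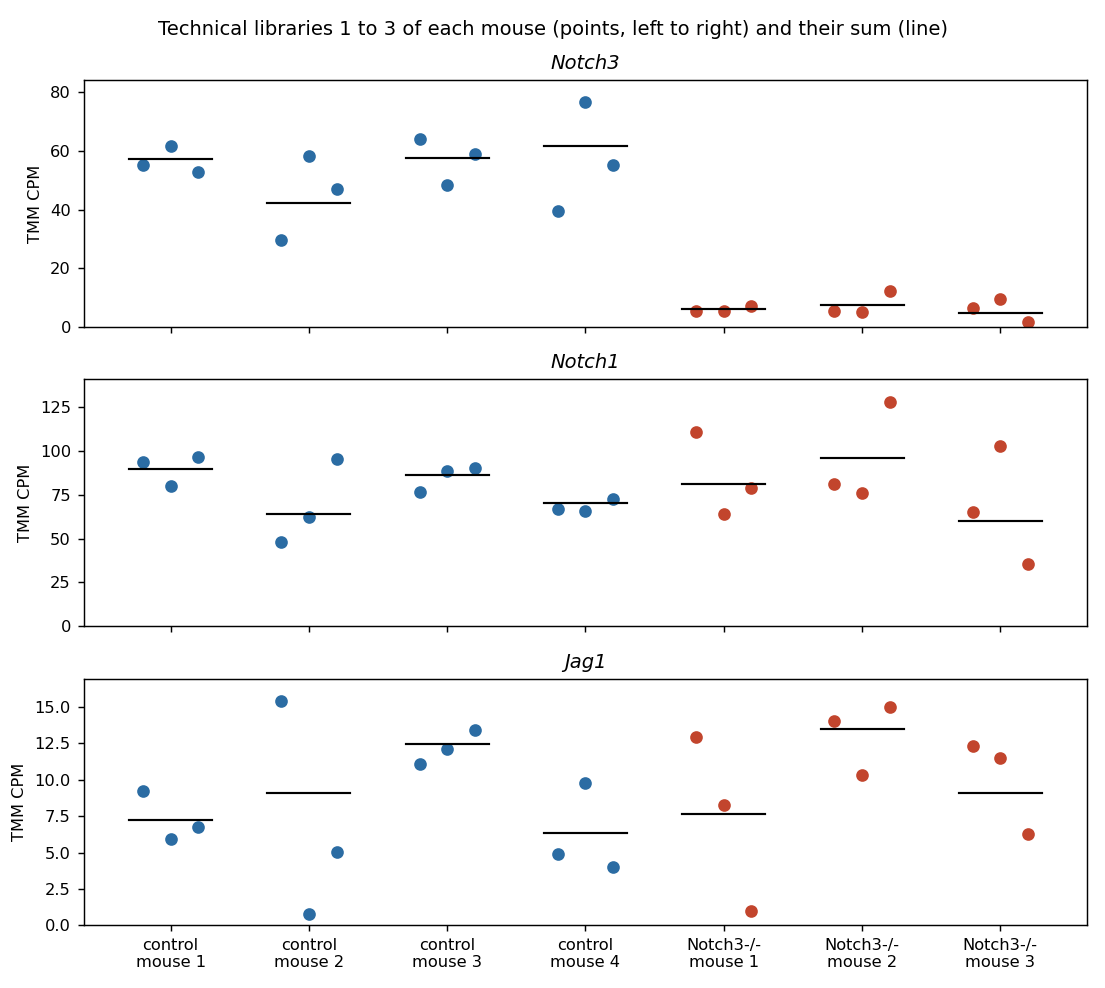
CPM of Notch3, Notch1 and Jag1 in the 3 technical libraries of each mouse (points, left to right) and in their sum (black line), with 4 control mice in blue and 3 Notch3-/- mice in red. All 9 Notch3-/- libraries lie below all 12 control libraries for Notch3 (at most 12.3 against at least 29.5), whereas libraries of 1 mouse differ widely for Notch1 and Jag1.

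Of the 42 genes in 7 lists of other Notch pathway genes, 37 were tested and 0 were called by edgeR. DESeq2 also called 0 of them, and limma-voom on the 7 mice likewise. By sign, 21 were higher and 16 lower (median log2 fold change 0.07), against 7108 higher and 7216 lower over all tested genes (median -0.00284). An unadjusted p lower than 0.05 was found for 5 of the 37, 4 higher and 1 lower, where 10.4% of all tested genes had one in either direction. In the list of 10 genes for receptor processing, which holds the ADAM proteases, furin and gamma-secretase subunits, 7 were higher and 3 lower (median 0.17). *Psen2*, which encodes a catalytic subunit of gamma-secretase, had 33.6, 35.2, 40.5 and 44.1 CPM in control mice 1 to 4 and 86.9, 155 and 26.5 CPM in *Notch3*-/- mice 1 to 3. *Notch3*-/- mice 1 and 2 were high and mouse 3 was the lowest of all 7 mice. Within the *Notch3*-/- group the hepatocyte marker sums had the same order (5402, 8774 and 125 CPM), which was not so among the control mice, and their part in the *Psen2* result was not tested. The log2 fold change of *Psen2* was 1.22 (SE 0.44, edgeR FDR 0.373). It was 1.65 without *Notch3*-/- mouse 3, where edgeR called it (FDR 0.00133, against 0.0598 to 1.00 in the other alternatives), 0.55 without *Notch3*-/- mouse 2, -0.53 in mouse 3 against the control mice and -0.85 with the hepatocyte markers as a covariate.

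Genes that modify receptors and ligands were not called by edgeR or DESeq2. Of the 5 glycosylation genes 3 were higher and 2 lower (median 0.11), and *Poglut1*, which adds glucose to the extracellular repeats of Notch receptors, had 27.0, 37.5, 23.1 and 31.7 CPM in control mice and 40.7, 33.7 and 49.4 CPM in *Notch3*-/- mice (log2 fold change 0.47, SE 0.21, edgeR FDR 0.481). *Notch3*-/- mouse 2 lay within the control range. Of the 4 ligases that mark ligands for endocytosis 1 was higher and 3 were lower (median -0.19). Among genes of receptor turnover and inhibition, 7 of 8 were tested, 5 were higher and 2 lower (median 0.38). *Numb*, an inhibitor of Notch signalling, had 54.002, 59.4, 56.5 and 48.4 CPM in control mice and 63.7, 71.7 and 77.2 CPM in *Notch3*-/- mice (log2 fold change 0.38, SE 0.14, edgeR FDR 0.376). *Dtx4*, a ubiquitin ligase of the Deltex family, had 9.55, 3.37, 12.2 and 10.7 CPM in control mice and 18.9, 15.8 and 19.5 CPM in *Notch3*-/- mice (log2 fold change 1.02, SE 0.37, edgeR FDR 0.376). Both genes lay above every control mouse in all 3 *Notch3*-/- mice, as did *Rfng*, named after its values were seen. These are 3 of 37 genes higher without overlap, beside 4.57% of all tested genes, and 0 of 37 were lower without overlap.

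Within the nuclear complex, *Rbpj*, the DNA-binding partner of the receptors, had 37.4 to 53.6 CPM in control and 39.5 to 55.6 CPM in *Notch3*-/- mice (log2 fold change 0.10, edgeR FDR 0.891), and of the 6 genes 3 were higher and 3 lower (median -0.07). Among target genes *Hes1* had 22.1, 15.4, 19.997 and 11.4 CPM in control mice and 11.8, 11.4 and 10.6 CPM in *Notch3*-/- mice (log2 fold change -0.62, SE 0.27, edgeR FDR 0.476), so that control mouse 4 reached the *Notch3*-/- range. *Hey1*, *Hey2*, *Heyl* and *Nrarp* had log2 fold changes of -0.13, -0.65, 0.26 and 0.08, with overlap between the genotypes for each. The value of *Hey2* depended on the setting, with -1.75 under the hepatocyte covariate, -1.58 in mouse 3 against the control mice, -1.13 without *Notch3*-/- mouse 2 and -0.33 without mouse 3. It was called in none of these, and its FDR ran from 0.603 to 1.00 over all alternatives. *Hes5* was at 0 in 5 of 7 mice, and the other ligands *Dll3*, *Dlk1* and *Dlk2* did not exceed 0.988 CPM in any mouse and were not tested.

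**Figure D5:**
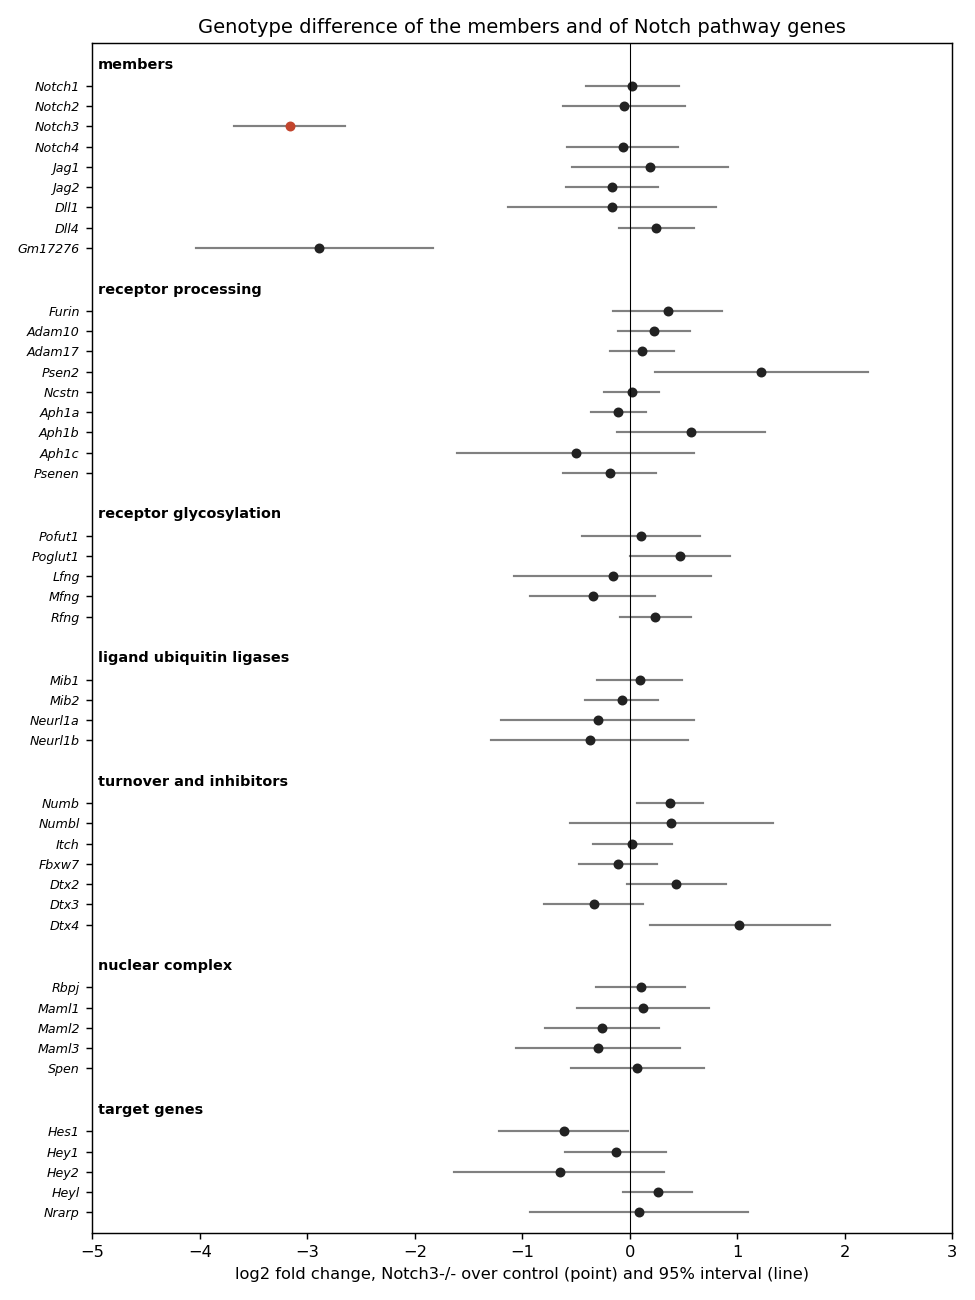
Log2 fold change of Notch3-/- over control hearts (points) with 95% intervals (lines) from edgeR for the 9 members and for tested genes of the Notch lists, with the called gene in red. Notch3 (-3.16) and Gm17276 (-2.89) lie apart from the other members, which range from -0.17 to 0.24.

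Sequence around the start of *Notch3* is shown because this gene carries the genotype difference. RefSeq promoters (GRCm38.p6, 250 bases before to 50 after the start) were found for 8 of the 9 members, 9 promoters in all, with none for *Gm17276*. The *Notch3* promoter (chr17:32166841-32167140, minus strand) has 70.0% G and C.
Notch3 promoter: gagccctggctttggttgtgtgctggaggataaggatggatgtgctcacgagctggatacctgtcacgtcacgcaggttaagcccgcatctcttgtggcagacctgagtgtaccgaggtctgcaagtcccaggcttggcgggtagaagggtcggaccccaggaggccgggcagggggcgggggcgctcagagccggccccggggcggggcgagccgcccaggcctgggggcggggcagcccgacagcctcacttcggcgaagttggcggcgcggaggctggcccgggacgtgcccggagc
The core letters bound by RBPJ, TGGGAA, were searched on both strands. They were in 0 of the 9 member promoters, and in 25.6% of all 32851 promoters of the table. Of the 3 target gene promoters in the table (*Hes5*, *Hey2* and *Nrarp*), those of *Hes5* and *Hey2* held 2 matches each. A window of 300 bases without a match says only that these letters are not in it.

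The genes most like each member over the 21 libraries were found by Pearson's r of log2 CPM among the 8511 genes (8512 for *Dll1*) with a mean of at least 20 CPM. Libraries of the same mouse share its RNA, so these values are descriptions. *Notch3* itself is lower in *Notch3*-/- hearts, so its r over both genotypes favours genes that are lower there as well. For *Notch3* the genes most like it included *Lbh* (r = 0.787) and *Trim63* (0.785), both with lower mean CPM in *Notch3*-/- hearts (410 against 266 and 365 against 246 CPM). Within the 12 control libraries they were *Peg3* (0.870), *Slc30a7* (0.864) and *Tsc1* (0.858), and neither *Lbh* nor *Trim63* was among these 3. The other receptors were most like *Atp7a* (0.777 with *Notch1*), *Brd2* (0.764 with *Notch2*) and *Kcnq1ot1* (0.797 with *Notch4*). Among the ligands, *Dll4* was most like *Abca3* (0.775), *Jag2* most like *Wrb* (0.795) and *Dll1* most like *Commd3* (0.692). *Jag1* and *Gm17276* were too low for this comparison, and *Dll1* was too low to be a candidate for the other members.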

How the data were processed

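The authors deposited whole-number read counts per Ensembl gene for 21 libraries, not normalized. The labels name the mm10 build and CASAVA. The aligner, the counting program and any removal of duplicate reads were not given in the sources used here. Gene symbols, positions and exon lengths came from GENCODE vM21 (GRCm38, the same build as mm10), in which 46005 of 46517 identifiers were found. The 92 ERCC spike-in lines, with 34 counts in all, were left out. Counts of the 3 libraries were summed per mouse, since the mouse is the replicate, giving 3046326 to 4638786 counts per control and 3828763 to 5167869 per Notch3-/- mouse. Single libraries held 464390 to 2427783 counts. The cDNA was amplified by PCR and no molecular identifiers are named, so reads are not independent molecules. The low genes Gm17276, Dll1 and Jag1 had the largest SE of the members (0.49, 0.43 and 0.32). No member passed 0.0457 counts per exon base in a library.

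Genotypes were compared in R 4.3.3 with edgeR 4.0.16 (filterByExpr, TMM, glmQLFit and glmQLFTest, two-sided, genotype as the only term) over 14324 genes, with Benjamini-Hochberg adjustment. Intervals are 95% intervals from that fit. The study used DESeq2, run here as an alternative (DESeq2 1.42.0, unshrunken fold changes), beside limma 3.58.1. Alternatives covered normalization, filters, each mouse left out, the k-labelled mice, a hepatocyte covariate, single technical libraries and transcript length. The comparison of Notch3-/- mouse 3 with the control mice was added after seeing the data. Named genes were all members, target and nuclear complex genes, Notch list genes called or with an unadjusted p lower than 0.05, and the 3 genes most like each member with at least 20 counts in every control mouse. Single results for some genes are not reported here. The members and the 7 Notch and 11 marker lists were chosen with earlier results of these data known.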

Additional observations from a re-analysis of the deposited data

Results flagged for a closer look

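In each of 50 Notch pathway genes with counts, the 4 control mice were examined for a mouse far from the other 3, and 3 were found, where chance gives about 1 in 20 groups. Mib1, a ligase that acts on Notch ligands, had 40.4 CPM in control mouse 4 and 48.5 to 49.1 CPM in the other control mice. Dll3 had 0.988 CPM in control mouse 1 and 0 in the other 3, and Hes5 had 1.00 CPM in control mouse 4 and 0 in the other 3. Where the other mice are at 0, any count stands apart, and each of these values rests on 3 counts. In the spike-in lines, which no comparison used, Notch3-/- mouse 1 had 18 counts, against 2 to 4 in the control mice and 1 and 2 in the other Notch3-/- mice. All 18 were in technical library 1 of that mouse, and its libraries 2 and 3 had 0.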

How the results depend on the processing

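Notch3 was lower in Notch3-/- hearts in all 21 alternatives, at log2 fold changes of -3.52 to -3.00 (-3.35 to -3.00 with single mice left out), and was called in 19. The exceptions were the k-labelled mice (-3.29) and the hepatocyte covariate (-3.42), both with 0 genes and 0 members called by edgeR, and 949 and 613 genes at an unadjusted p lower than 0.05. Against 1 gene called over all mice, there were 601 with DESeq2, 639 with every gene of at least 1 count, 48, 39 and 77 with technical library 1, 2 or 3 alone, and 1 to 936 with single mice left out, the highest without Notch3-/- mouse 3. Members called numbered 2 with DESeq2 and with every gene of at least 1 count, and 1 to 2 with single mice left out, the second being Gm17276, which was lower in all 17 alternatives that tested it (-4.07 to -2.49). Gm17276 passed the main filter only through the control mice, so its direction in settings with such a filter is not separate support. Notch pathway genes called were 0 to 1 with single mice left out, the 1 being Psen2 without Notch3-/- mouse 3. A fit of the 21 libraries in limma-voom with the mouse as a random effect and the technical number as a block called 62 genes and 1 member, with Notch3 at -3.30. On the sums of the 7 mice limma-voom called only 1 gene, Notch3. The technical numbers do not pair mice, since each mouse has all 3. The 7 members other than Notch3 and Gm17276 were called in none of 147 values, and their sign changed in 22. With single mice left out, log2 fold changes ran from -0.14 to 0.18 for Notch1, -0.35 to 0.19 for Notch2, -0.31 to 0.16 for Notch4, -0.0783 to 0.39 for Jag1, -0.38 to 0.24 for Dll1, -0.0692 to 0.22 for Rbpj, -0.15 to 0.33 for Maml1, -0.27 to 0.27 for Spen, -0.23 to 0.0028 for Hey1 and -0.14 to 0.56 for Nrarp. Other sign changes followed the setting. With the hepatocyte covariate they were Notch1 -0.40, Jag1 -0.0177, Dll1 0.29, Maml1 -0.51, Spen -0.46 and Psen2 -0.85. In Notch3-/- mouse 3 against the control mice they were Notch1 -0.37, Dll1 0.0825, Maml1 -0.42, Spen -0.44 and Psen2 -0.53. In the k-labelled mice they were Notch2 0.11, Maml3 0.0221, Spen -0.0420 and Nrarp -0.13, and in the blocked fit Notch1 -0.0194 and Maml1 -0.13. With technical library 1 alone they were Notch4 0.11, Dll1 0.86, Rbpj -0.14, Heyl -0.19, Numb -0.22 and Poglut1 -0.58, with library 2 Notch4 0.22 and Nrarp -0.0566, and with library 3 Notch1 -0.15, Notch2 0.27, Jag2 0.0221, Maml1 -1.21, Maml2 0.23, Maml3 0.23 and Spen -0.13. The cause was not tested. Depth limits Jag1, Dll1 and Gm17276 most, with single libraries of 0 to 50 counts.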

Other observations

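Further cell type markers were measured beside the Notch genes. The 7 fibroblast markers summed to 1182 to 1425 CPM in control mice and to 1333, 1421 and 1710 CPM in Notch3-/- mice 1 to 3. DESeq2 called the collagen genes Col1a1 and Col3a1 higher, where it called 3.53% of all genes. By edgeR 0 of the 7 were called, and 3 were higher and 1 lower at an unadjusted p lower than 0.05, as were 10.4% of all tested genes. The lower one was Dcn, the most abundant of the list in control hearts, with a mean of 510 CPM in control and 426 CPM in Notch3-/- hearts and no overlap of the mice. The 6 macrophage markers summed to 292 to 347 CPM in control hearts, against 354, 347 and 403 CPM. The 4 adipocyte markers summed to at most 9.02 CPM in any mouse (control mouse 4). The 3 erythroid markers summed to 249 to 411 CPM in control mice and to 215, 376 and 155 CPM in Notch3-/- mice.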
